A study of Mus musculus with 15 samples.

Results

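TAF-el4 fibroblasts were compared with NSF fibroblasts in gene expression over all genes of a mouse array. The comparison was chosen by sample title and rests on 6 of the 15 arrays of the series, 3 of TAF-el4 and 3 of NSF. The labels call TAF-el4 resistant and NSF sensitive, and the series title sets these terms in the context of tumours that resist treatment against VEGF, the growth factor of blood vessels. TAF is read from that title as tumour-associated fibroblast, EL4 is known as a T-cell lymphoma line of the mouse, and the sources used here do not spell out NSF. Neither source has a mouse strain, age, culture passage or drug treatment in its labels, and each is 1 source of cells, so a difference between them is a difference between these sources and not between resistant and sensitive fibroblasts at large. On every array the fibroblast RNA carried the dye Cy5 and a commercial pool of mouse RNA, the same for all sources, carried Cy3. Whether replicate arrays stand for separate cultures or animals is not stated, so p-values reflect array-to-array spread, possibly only technical. The remaining 9 arrays hold TAF-tib42 and TAF-tib48, labelled resistant, and TAF-tib6, labelled sensitive, with 3 arrays each.

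Fibroblasts make and remodel the connective tissue matrix, and they also act as sentinels of inflammation. Signals of infection or injury activate the transcription factor NF-kappaB, which in fibroblasts switches on chemokines that draw in neutrophils and monocytes, acute phase proteins, complement components, and the inhibitors that later shut NF-kappaB off again. In tumours, fibroblasts in addition secrete growth factors that act on tumour cells and on blood vessels, which is why they are studied in resistance to blockade of VEGF.

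A level is given here as the log2 ratio of the fibroblast RNA to the reference RNA on an array, and a difference as TAF-el4 minus NSF on the same log2 scale, in which 1 unit is a 2-fold change. Median Cy5 intensity over the 6 arrays lay between 173.3 and 264.1 against a median background of 53 to 56, and 89.53% to 94.46% of the probes of an array were well above background. Over genes, arrays of TAF-el4 correlated with each other at 0.9798 to 0.9877, arrays of NSF at 0.9799 to 0.9816, and arrays of different sources at 0.9023 to 0.9182. The slide barcodes put the 3 NSF arrays and TAF-el4 replicates 1 and 2 in 1 run of consecutive slides and TAF-el4 replicate 3 in the next. Scan order followed the sources, so scan order and source cannot be told apart.

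Far more genes changed strongly downward than upward in TAF-el4. Of 31188 genes tested, 5421 were called at an adjusted p under 0.05 (17.4%; limma with Benjamini-Hochberg adjustment over all genes tested), 2746 of them higher in TAF-el4 (8.80%) and 2675 lower (8.58%). With median centring in place of loess the calls split into 1727 higher and 2946 lower, so the even split of small differences depends on the normalisation. The median difference over all genes was 0.0015. For 31.6% of the genes tested, the arrays of the sources did not overlap. Counts of called list members below are to be read against the 8.80% higher and 8.58% lower of all genes. Among genes that were called and differed at least 2-fold, 33 were higher (0.106% of genes tested) and 114 lower (0.366%). Within the first run of slides, which leaves out TAF-el4 replicate 3, 147 of these 147 genes kept their call and direction.

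**Figure D1:**
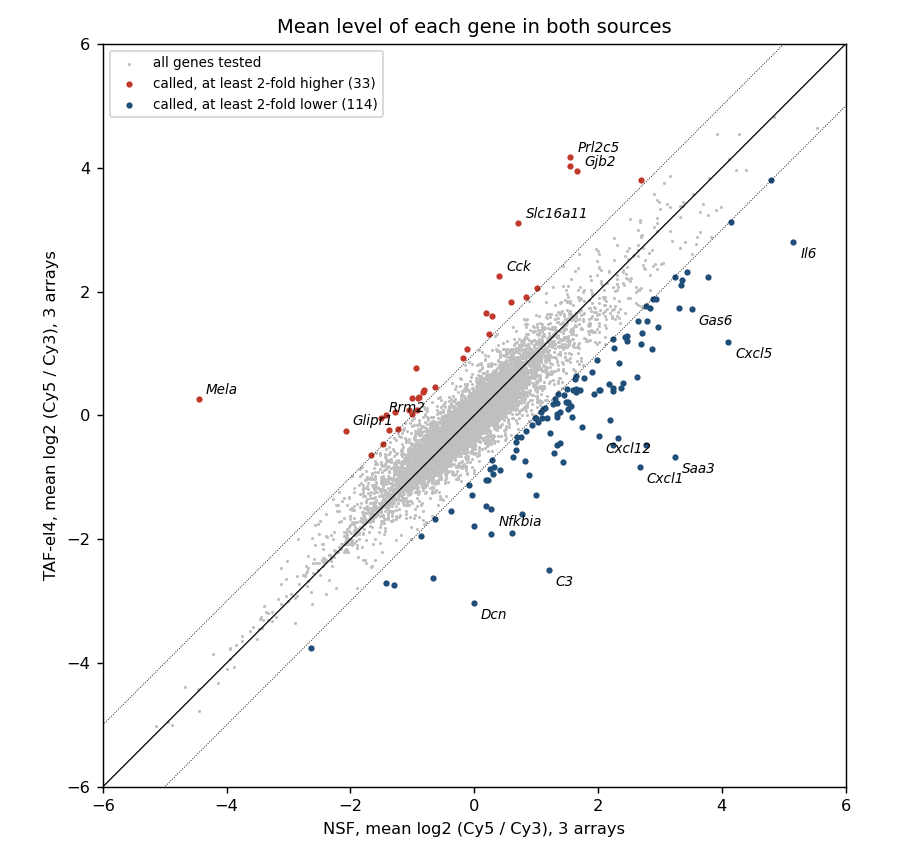
Mean log2 ratio of each of the 31188 genes tested in NSF (horizontal axis) and TAF-el4 (vertical axis), 3 arrays each; the solid line marks equal levels and the dotted lines a 2-fold difference. The 114 genes called at least 2-fold lower outnumber the 33 called at least 2-fold higher, and Mela lies apart from all other genes at -4.45 in NSF and 0.26 in TAF-el4.

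Genes of the acute phase response, secreted proteins made in quantity during inflammation, formed the list with the lowest median difference. Of 16 tested members, 11 were called lower and 0 higher, with a median difference of -1.11 against 0.0015 for all genes. Among the 11, Ptx3 was saturated on all 3 NSF arrays. The list lay below NSF in the other tumour-associated sources too, with medians of -0.48 in TAF-tib42, -1.31 in TAF-tib48 and -0.54 in TAF-tib6. Saa3, a serum amyloid A protein, stood at -0.43, -0.70 and -0.89 on the TAF-el4 arrays and at 2.76, 3.44 and 3.53 on the NSF arrays. It was thus above the reference in NSF and below it in TAF-el4, without overlap, and the difference of -3.92 (SE 0.255, adjusted p = 3.6e-09) is a 15.1-fold lower level. Its relative Saa1 read -0.42, -0.43 and -0.58 against 2.25, 3.07 and 3.00, a difference of -3.25 (SE 0.184, adjusted p = 5.9e-10). A second, dimmer Saa1 probe differed by only -0.12 (adjusted p = 0.191 among all probes). Cp, the copper-carrying plasma protein ceruloplasmin, was 3.87-fold lower (-1.95, SE 0.0835, adjusted p = 2.1e-11).

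Chemokines, the secreted proteins that guide migrating leukocytes, included several of the largest differences, although the list as a whole did not shift. Of 37 tested chemokines and cytokines, 13 were called lower and 5 higher, and their median was -0.04. Cxcl1, which attracts neutrophils, read -0.79, -0.92 and -0.78 on the TAF-el4 arrays and 2.59, 2.75 and 2.67 on the NSF arrays. All 3 NSF arrays thus lay far above every TAF-el4 array, and the fitted level was 11.3-fold lower in TAF-el4 (difference -3.50, SE 0.117, adjusted p = 8.9e-13). Cxcl5, another neutrophil attractant, fell from 3.91, 4.20 and 4.18 to 1.32, 1.13 and 1.14, so it remained above the reference in both sources (difference -2.90, SE 0.239, adjusted p = 7.0e-08). Il6, a cytokine that drives the acute phase response, was among the genes highest above the reference in NSF at 5.0, 5.23 and 5.21, and read 2.95, 2.84 and 2.62 in TAF-el4. That is a 5.07-fold lower level (-2.34, SE 0.100, adjusted p = 2.1e-11), still well above the reference RNA. Cxcl12, the ligand of Cxcr4, which retains and attracts stem cells and lymphocytes, crossed the reference level, from 1.89, 2.04 and 2.10 in NSF to -0.27, -0.32 and -0.43 in TAF-el4. Both of its probes fell, by 2.35 (SE 0.174, adjusted p = 1.9e-08) and by 2.74. The 5 members called higher, named after their values were seen, were Il11 (0.72), Cxcl14 (0.70), the macrophage growth factor Csf1 (0.66), Ppbp (0.48) and Ccl25 (0.33).

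Targets through which NF-kappaB limits its own activity, together with adhesion and protective genes it induces, moved down as well. Of 21 tested, 13 were called lower and 1 higher, with a median of -0.47. The exception was Ripk2 (0.26); like each lone exception to a list's direction given in the text, it was named after its values were seen. Nfkbia, which encodes the inhibitor that holds NF-kappaB in the cytoplasm and is itself a target of it, read -1.46, -1.53 and -1.58 in TAF-el4 and 0.23, 0.36 and 0.22 in NSF. The sources did not overlap, and the level was 3.47-fold lower in TAF-el4 (-1.79, SE 0.0837, adjusted p = 5.7e-11). Sod2, the mitochondrial superoxide dismutase, read -0.06, -0.02 and -0.02 against 1.46, 1.65 and 1.63 (-1.62, SE 0.0547, adjusted p = 9.2e-13). For Vcam1, an adhesion receptor for leukocytes, both probes fell, by 1.49 (SE 0.0754, adjusted p = 1.4e-10) and by 1.54. The members of this list were taken from known targets of the factor.

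Promoters are shown for the genes of these groups in which the NF-kappaB consensus was found close to the start, so that the sequence can be read beside the values above. Each run is the 250 bases before the annotated start in RefSeq, on build GRCm38.p6, read 5′ to 3′ on the strand of the gene, with matches to the consensus on either strand in capitals. The window of Cxcl1 is chr5:90890995-90891244 on the plus strand and holds overlapping matches from 71 to 61 bases before the start. That of Il6 is chr5:30012864-30013113 on the plus strand, with a match from 44 to 35 bases before the start. For Nfkbia the window is chr12:55492648-55492897 on the minus strand, with a match from 29 to 20 bases before the start. The Sod2 window is chr17:13007589-13007838 on the plus strand, with a match from 83 to 74 bases before the start.
Cxcl1: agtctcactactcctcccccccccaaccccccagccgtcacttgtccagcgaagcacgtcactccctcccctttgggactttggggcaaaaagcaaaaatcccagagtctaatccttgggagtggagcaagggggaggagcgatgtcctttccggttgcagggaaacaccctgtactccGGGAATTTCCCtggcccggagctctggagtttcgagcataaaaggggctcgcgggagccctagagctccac
Il6: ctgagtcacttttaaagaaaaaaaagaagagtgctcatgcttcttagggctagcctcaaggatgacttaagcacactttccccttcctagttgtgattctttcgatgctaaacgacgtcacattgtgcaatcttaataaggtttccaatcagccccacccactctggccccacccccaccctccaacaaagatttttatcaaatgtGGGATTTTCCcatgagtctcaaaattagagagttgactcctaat
Nfkbia: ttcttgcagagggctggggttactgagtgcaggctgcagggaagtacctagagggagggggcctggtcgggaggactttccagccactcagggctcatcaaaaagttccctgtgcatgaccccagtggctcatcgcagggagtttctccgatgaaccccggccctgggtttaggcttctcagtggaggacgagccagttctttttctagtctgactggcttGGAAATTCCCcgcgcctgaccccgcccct
Sod2: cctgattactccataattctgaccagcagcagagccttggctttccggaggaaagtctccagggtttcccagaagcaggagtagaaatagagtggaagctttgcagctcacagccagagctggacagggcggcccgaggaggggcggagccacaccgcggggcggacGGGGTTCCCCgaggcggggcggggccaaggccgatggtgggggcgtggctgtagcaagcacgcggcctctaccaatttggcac
The consensus was found in 9 of 27 promoters of the chemokine and cytokine list and in 8 of 16 of the NF-kappaB list, but in 1 of 13 of the acute phase list and 0 of 12 of the complement list, against 7.01% of all 27025 promoters of the same length. Among genes called at least 2-fold lower, 6 of 58 promoters held it (10.3%), and among those called at least 2-fold higher, 3 of 17 (17.6%). The shares were 9.26% for all genes called lower, 8.55% for those called higher and 7.97% for genes tested. The windows of Saa3, Saa1, C3 and Cxcl12 held no match. Outside these groups, those of Gjb2, Egr2, Gjb5 and Pdgfc, all called higher in TAF-el4, did hold the consensus. So did those of Fos, called lower, and Vegfa, not called. A match is a stretch of letters and not evidence of binding, and Cxcl5 and Vcam1 are named only.

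Interferon-stimulated genes, the antiviral set switched on by interferons, were lower by smaller amounts. Of 38 tested, 20 were called lower and 1 higher (Oas1a, 0.73), with a median of -0.29. Ifit1, which binds foreign RNA, read 0.24, -0.30 and -0.71 in TAF-el4 and 1.0, 0.70 and 0.79 in NSF. The TAF-el4 arrays differed among themselves by nearly as much as they differed from NSF, with replicate 3, the array of the second run of slides, lowest. The difference was -1.09 (SE 0.171, adjusted p = 0.00011). Gbp3 and Iigp1, GTPases that act against intracellular pathogens, differed by -0.87 (SE 0.157, adjusted p = 0.00045) and -0.86 (SE 0.150, adjusted p = 0.00033), and replicate 3 was again the lowest TAF-el4 array for both. Within the first run of slides the differences were -0.86, -0.64 and -0.68 for Ifit1, Gbp3 and Iigp1, and 19 members were called lower, with a list median of -0.20. Ratios scaled between arrays gave 13 downward calls.

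Complement, a cascade of plasma proteins that tags and lyses targets, had members both lowered and not called. Of 20 tested members, 9 were called lower and 1 higher (Cd59a, 0.21, an inhibitor of the terminal complex), with a median of -0.16. C3, the central component, read -2.46, -2.42 and -2.58 in TAF-el4 and 1.08, 1.27 and 1.25 in NSF. Its bright probe gave a 12.9-fold lower level (-3.69, SE 0.220, adjusted p = 1.2e-09), while a dim second probe differed by -0.09 (adjusted p = 0.334 among all probes). C1s1 and C1ra, the proteases that start the classical pathway, fell by 2.36 (SE 0.145, adjusted p = 1.6e-09) and by 1.84 (SE 0.149, adjusted p = 5.6e-08). The C1s1 levels were -1.61, -1.44 and -1.72 against 0.63, 0.77 and 0.92, and those of C1ra were -0.41, -0.40 and -0.55 against 1.29, 1.42 and 1.45, both without overlap. C1qa, C1qb and C1qc, the recognition subunits of the same pathway, which were listed with the macrophage markers, were not called (0.08, 0.03 and 0.03; adjusted p = 0.244, 0.809 and 0.823).

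**Figure D2:**
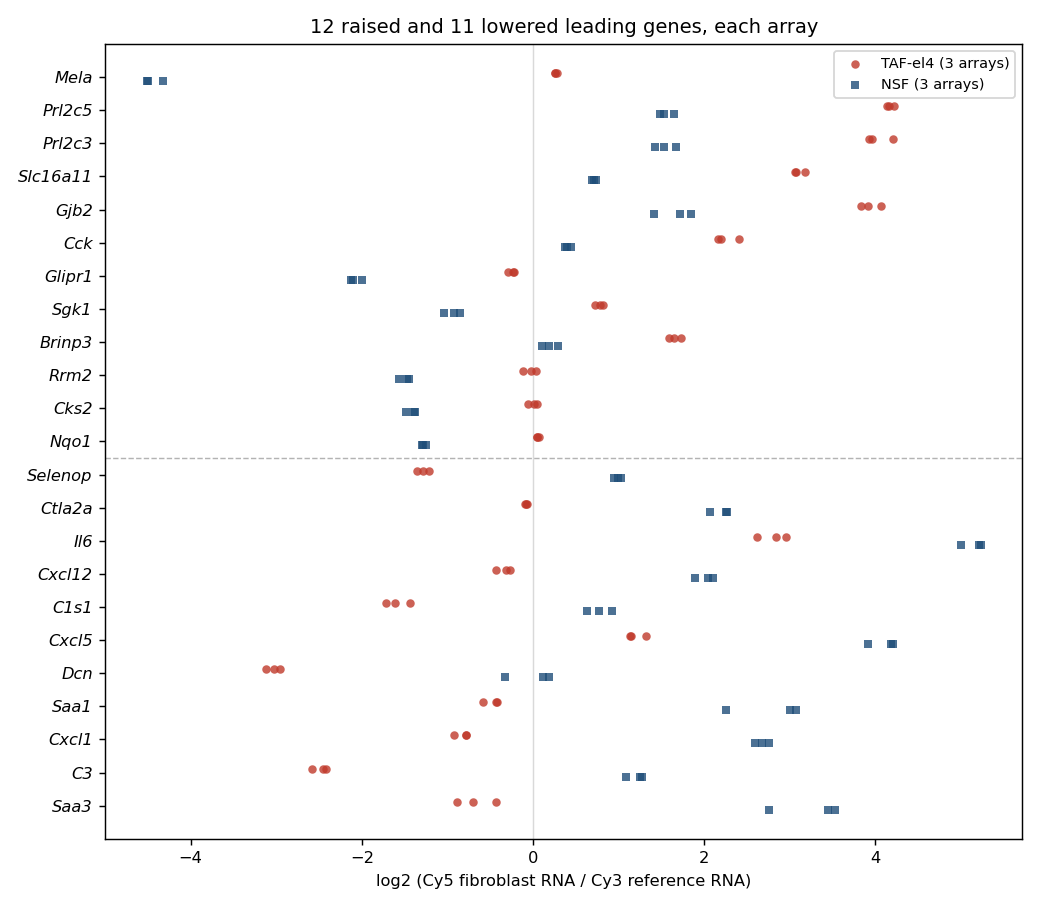
Log2 ratio of fibroblast to reference RNA (horizontal axis) on each array for the 12 genes with the highest difference and 11 of the 12 with the lowest among called, non-overlapping genes. Circles are the 3 TAF-el4 arrays and squares the 3 NSF arrays; for Saa3 the TAF-el4 arrays lie between -0.89 and -0.43 and the NSF arrays between 2.76 and 3.53.

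Matrix genes were lower in TAF-el4 in each structural class but not throughout. Small leucine-rich proteoglycans, which coat collagen fibrils and bind growth factors, had 7 of 14 members called lower and 0 higher (median -0.15). Dcn, or decorin, read -3.03, -2.96 and -3.12 in TAF-el4 and -0.33, 0.19 and 0.12 in NSF. It was thus near the reference level in NSF and far below it in TAF-el4, an 8.16-fold lower level (-3.03, SE 0.147, adjusted p = 8.3e-11). Ogn fell from -1.35, -1.28 and -1.29 to -2.71, -2.70 and -2.81 (-1.44, SE 0.142, adjusted p = 6.8e-07). The third, Prelp, differed by -0.60 (SE 0.125, adjusted p = 0.00165), but a second probe gave -0.08 and ratios scaled between arrays ended its call (adjusted p = 0.591).

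Of 21 tested collagens, 11 were called lower and 1 higher (Col7a1, the anchoring fibril collagen of skin, 0.58), with a median of -0.21. The main fibrillar collagens could not be compared, since the probes of Col1a1 and Col1a2 were saturated on all 6 arrays, and Col3a1, saturated on all 3 NSF arrays, has only a bound there. Col18a1, a basement membrane collagen whose fragment is endostatin, read -1.03, -1.02 and -1.11 in TAF-el4 and 0.21, 0.26 and 0.18 in NSF (-1.27, SE 0.0845, adjusted p = 4.8e-09). Its second probe fell by 0.94. Col14a1 and Col15a1, which sit between fibrils and beneath basement membranes, differed by -1.14 (SE 0.149, adjusted p = 1.7e-05) and -0.72 (SE 0.0634, adjusted p = 1.6e-07), while their dimmer second probes gave -0.04 and -0.03. Among 46 matrix glycoproteins tested, 25 were called lower and 4 higher (median -0.31). Nid2, a basement membrane linker, fell from 2.25, 2.42 and 2.44 in NSF to 0.46, 0.52 and 0.36 in TAF-el4 (-1.93, SE 0.101, adjusted p = 2.0e-10). Ccn3, a matricellular regulator of growth, and Mgp, an inhibitor of calcification, differed by -1.78 (SE 0.145, adjusted p = 6.1e-08) and -1.66 (SE 0.103, adjusted p = 1.9e-09). The 4 called higher, named after their values were seen, were Ccn2 (0.69), Mfap5 (0.34), Thbs2 (0.33) and Ccn4 (0.21). With ratios scaled between arrays, 11 glycoproteins and 6 collagens were called lower.

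Enzymes that cut the matrix and their inhibitors were mixed, with 9 of 32 tested called lower and 6 higher (median -0.08); the probe of Timp1, among the latter, was saturated on all 3 TAF-el4 arrays. Adamts15 and Adamts1, proteases that cleave proteoglycans, read 0.00, 0.01 and -0.10 against 1.35, 1.24 and 1.39, and 1.26, 1.18 and 1.17 against 2.50, 2.36 and 2.53. They fell by 1.36 (SE 0.0597, adjusted p = 3.0e-11) and by 1.26 (SE 0.0902, adjusted p = 1.2e-08). Contractile genes of the myofibroblast state had 7 of 19 called higher and 2 lower (median 0.13), but 1 higher and 1 lower with scaled ratios. The probe of Acta2, a member of this list, was saturated on all 3 arrays of each source, so Acta2 could not be compared. Cnn1 (0.64, SE 0.0852, adjusted p = 2.1e-05) and Tpm2 (0.45, SE 0.0639, adjusted p = 3.5e-05), which bind actin filaments, lost their calls with scaled ratios (adjusted p = 0.435 and 0.538). Mylk, the kinase that activates smooth muscle myosin, was lower (-0.50, SE 0.0517, adjusted p = 1.1e-06).

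Genes of cell division were higher in TAF-el4. Of 30 tested mitosis genes, 29 were called higher and 0 lower, with a median of 0.72; the exception was Cdc25c at 0.05 (adjusted p = 0.543). Of 30 DNA replication genes, 24 were called higher and 0 lower, with a median of 0.47. With ratios scaled between arrays 24 mitosis genes but 7 replication genes were called, while the medians were 0.65 and 0.40, so the replication calls rest on how the arrays were scaled. Kif20a, a motor of cytokinesis, read 0.28, 0.28 and 0.29 in TAF-el4 and -0.90, -0.89 and -0.93 in NSF (1.19, SE 0.108, adjusted p = 2.4e-07). Cdc20, which activates the complex that starts anaphase, read 0.28, 0.27 and 0.30 against -0.90, -0.87 and -0.92 (1.18, SE 0.118, adjusted p = 7.3e-07). Cenpa, the histone of centromeres, was 1.98-fold higher (0.98, SE 0.115, adjusted p = 4.4e-06). These genes thus stood above or near the reference RNA in TAF-el4 and below it in NSF, apart from Cenpa, which was below it in both.

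Among replication genes the largest difference was in Rrm2, the regulated subunit of the enzyme that makes deoxynucleotides, at -0.12, -0.03 and 0.03 against -1.45, -1.57 and -1.47. It was 2.75-fold higher in TAF-el4 (1.46, SE 0.106, adjusted p = 1.5e-08). Its partner subunit Rrm1 was higher by 0.84 (SE 0.0972, adjusted p = 3.9e-06). Mcm3, a part of the replicative helicase, was higher by 0.79 (SE 0.103, adjusted p = 1.6e-05) on its bright probe and by 0.34 on another, and lost its call with scaled ratios (adjusted p = 0.0683). Cks2, which binds the mitotic kinase Cdk1 and was outside both lists, read -0.06, 0.01 and 0.05 against -1.48, -1.39 and -1.38 (1.41, SE 0.109, adjusted p = 3.1e-08). Its second probe gave 1.31.

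Promoters of this group are shown because CCAAT boxes, bound by the factor NF-Y, and the element TTTGAA recur in genes that peak in mitosis. Capitals mark CCAAT and TTTGAA on either strand in the 250 bases before the start, again from RefSeq on GRCm38.p6; the marked stretches do not overlap. For Cdc20 the window is chr4:118437344-118437593 on the minus strand, with CCAAT from 53 to 49 and from 8 to 4 and TTTGAA from 18 to 13 bases before the start. For Rrm2 it is chr12:24708004-24708253 on the plus strand, with CCAAT from 50 to 46 bases before the start.
Cdc20: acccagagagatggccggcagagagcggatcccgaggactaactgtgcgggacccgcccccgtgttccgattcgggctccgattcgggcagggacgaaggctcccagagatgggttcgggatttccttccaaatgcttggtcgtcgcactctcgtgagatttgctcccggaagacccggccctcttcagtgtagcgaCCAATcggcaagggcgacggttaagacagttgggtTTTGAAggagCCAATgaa
Rrm2: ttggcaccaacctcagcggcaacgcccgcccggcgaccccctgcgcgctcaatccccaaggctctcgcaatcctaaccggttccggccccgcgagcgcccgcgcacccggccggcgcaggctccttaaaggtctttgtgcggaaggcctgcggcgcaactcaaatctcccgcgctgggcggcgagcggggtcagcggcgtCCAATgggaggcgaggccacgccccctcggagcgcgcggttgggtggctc
CCAAT was found in 19 of 24 mitosis promoters and in 15 of 25 DNA replication promoters, against 34.5% of all promoters of that length, 36.2% of those of genes tested and 40.7% of those of genes called higher. TTTGAA was found in 7 of 24 mitosis promoters and 2 of 25 replication promoters, against 16.3% of all promoters. Kif20a is named only.

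**Figure D3:**
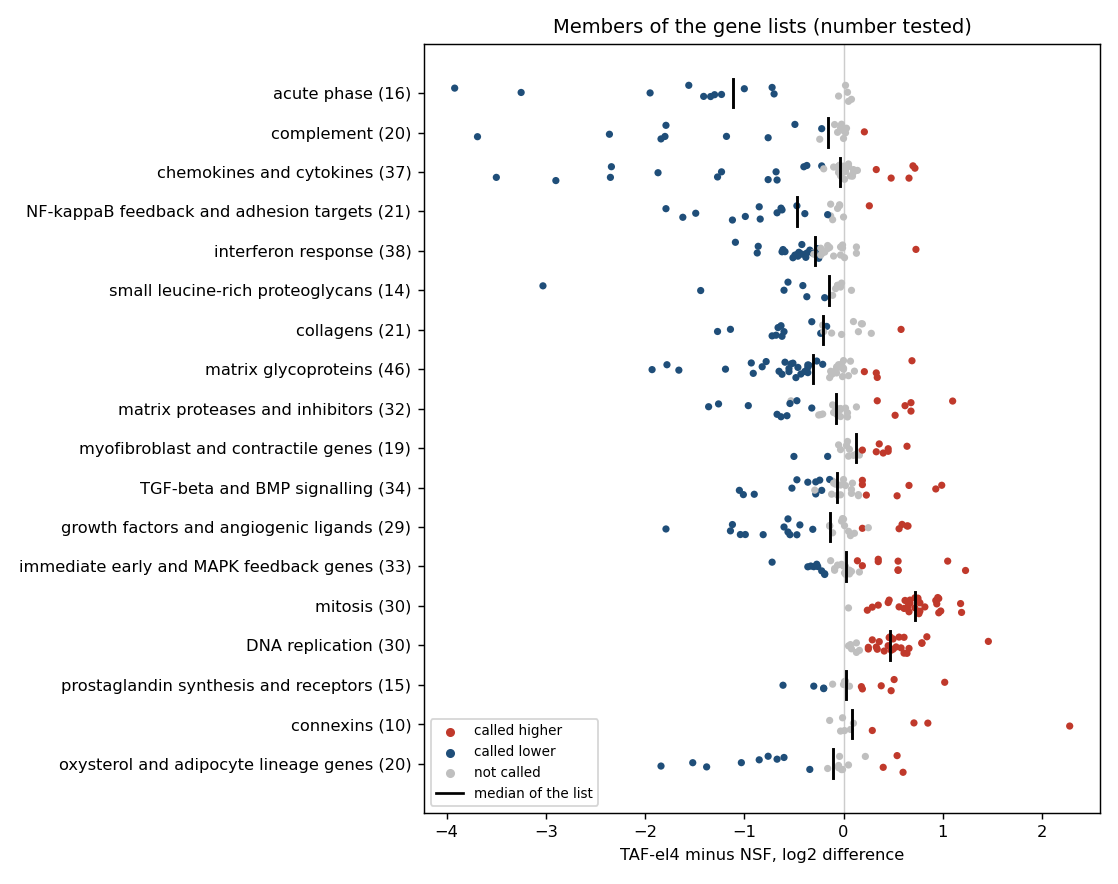
Log2 difference, TAF-el4 minus NSF (horizontal axis), of each tested member of 18 gene lists; colour marks members called higher, called lower or not called, and the black bar is the median of the list. Acute phase genes have a median of -1.11 and mitosis genes one of 0.72, while chemokines and cytokines spread from -3.50 to 0.72 around a median of -0.04.

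Beyond Rrm2 and Cks2, described above, the 12 highest differences were in the genes that follow. Mela, annotated as a melanoma antigen, was far below the reference in NSF at -4.50, -4.51 and -4.33 and read 0.26, 0.28 and 0.25 in TAF-el4. It was 26.1-fold higher (4.71, SE 0.0770, adjusted p = 2.1e-17), the largest difference of any named gene, and 0 of 6 melanocyte markers tested were called. The NSF signal of its single probe was still well above background on all 3 arrays. Prl2c5 and Prl2c3, proliferins, which are secreted prolactin-like hormones first known from growing fibroblasts and placenta, stood at 4.13, 4.16 and 4.22 and at 3.92, 3.96 and 4.21 in TAF-el4. In NSF they stood at 1.48, 1.65 and 1.53 and at 1.42, 1.53 and 1.67. The fitted differences were 2.61 (SE 0.137, adjusted p = 2.0e-10) and 2.49 (SE 0.137, adjusted p = 3.6e-10), and 3 further probes gave 2.10 to 2.21. Proliferin genes are near-identical copies, so probes may not tell them apart, and their values count as 1 family signal.

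Slc16a11, a member of the monocarboxylate transporter family, read 3.07, 3.06 and 3.18 against 0.74, 0.71 and 0.69, a 5.24-fold higher level (2.39, SE 0.0648, adjusted p = 7.0e-14). Gjb2, or a connexin, a channel protein of gap junctions usually known from epithelia and the inner ear, read 3.91, 3.83 and 4.06 against 1.84, 1.41 and 1.72 (2.28, SE 0.116, adjusted p = 1.4e-10). A dimmer Gjb2 probe gave 0.29. Connexins as a list had 4 of 10 called higher and 0 lower, among them Gja1, the main connexin of fibroblasts (0.85, SE 0.0694, adjusted p = 6.4e-08), and Gjb5 (0.71, SE 0.0621, adjusted p = 1.6e-07). Cck, the gut and brain peptide hormone cholecystokinin, read 2.19, 2.16 and 2.40 against 0.44, 0.40 and 0.37 (1.84, SE 0.0694, adjusted p = 3.7e-12). Sgk1, a kinase induced by serum and glucocorticoids, passed from -0.85, -0.93 and -1.04 in NSF to 0.82, 0.72 and 0.78 in TAF-el4 (1.71, SE 0.0879, adjusted p = 1.6e-10). Glipr1 (1.83), Brinp3 (1.46) and Nqo1, a detoxifying quinone reductase (1.33), completed the 12 highest, and the next in order was C1qtnf12 at 1.32. The rule for the 12 highest admitted only genes in which the arrays of the sources did not overlap.

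Genes outside the lists were also among the 12 lowest. Selenop, the plasma carrier of selenium, fell from 0.95, 0.99 and 1.03 to -1.29, -1.22 and -1.36 (-2.28, SE 0.157, adjusted p = 7.6e-09). Ctla2a, which resembles the propeptide of cysteine proteases, fell from 2.25, 2.27 and 2.07 to -0.07, -0.08 and -0.09 (-2.28, SE 0.112, adjusted p = 2.2e-10). The next in order was Ptn, at -2.19.

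Secreted growth factors moved in both directions, with 13 of 29 tested called lower and 5 higher (median -0.14). Pdgfa and Pdgfc, ligands of the PDGF receptors, were higher. Pdgfc read -0.32, -0.29 and -0.19 against -0.86, -0.79 and -0.91, 1.5-fold higher (0.59, SE 0.0644, adjusted p = 2.2e-06), and its second probe gave 0.51. Pdgfa read 0.96, 0.99 and 0.96 against 0.42, 0.39 and 0.42 (0.56, SE 0.0526, adjusted p = 3.5e-07), and its second probe gave 0.58. Vegfa, the target of the blockade named in the title, did not pass the test, at 0.22, 0.24 and 0.10 against 0.10, 0.11 and 0.12 (0.07, SE 0.0478, adjusted p = 0.393), and its other probes gave 0.06 and 0.03. Its relative Vegfd, a growth factor of lymphatic vessels, was lower, at 1.54, 1.53 and 1.52 against 2.68, 2.56 and 2.72 (-1.12, SE 0.0953, adjusted p = 1.0e-07). Angpt2, a ligand of the endothelial receptor Tek, was 2.20-fold lower (-1.14, SE 0.149, adjusted p = 1.6e-05). The largest difference in the list was in Gas6, a ligand of the TAM receptor kinases, at 1.63, 1.83 and 1.71 against 3.61, 3.43 and 3.50 (-1.79, SE 0.194, adjusted p = 1.9e-06).

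In the TGF-beta and BMP list 7 of 34 tested were called higher and 11 lower (median -0.07). Inhba, a subunit of activin, was 1.98-fold higher (0.99, SE 0.0684, adjusted p = 8.0e-09), while Fst, which binds and blocks activin, was 2.08-fold lower (-1.05, SE 0.0941, adjusted p = 1.9e-07). Both did so without overlap, with Inhba at 2.37, 2.43 and 2.47 against 1.38, 1.42 and 1.51 and Fst at 1.92, 1.87 and 1.85 against 2.98, 2.78 and 3.05. Id4, a BMP-induced inhibitor of transcription factors, differed by -1.01 (SE 0.0831, adjusted p = 6.4e-08), without a call under scaled ratios (adjusted p = 0.115). Immediate early genes, which respond to growth signals within minutes, had 9 of 33 called in each direction. Egr2 (1.23, SE 0.134, adjusted p = 1.9e-06) and Fosl1 (1.05, SE 0.0720, adjusted p = 7.4e-09) were higher and Fos was lower (-0.72, SE 0.117, adjusted p = 0.00016), the last without a call under scaled ratios (adjusted p = 0.0927).

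Lipid mediators split by enzyme. Ptgs2, the inducible cyclooxygenase that starts prostaglandin synthesis, read 2.11, 1.99 and 2.04 in TAF-el4 and 1.08, 1.01 and 0.99 in NSF (1.02, SE 0.0778, adjusted p = 2.6e-08; 1.01 on its second probe). The constitutive Ptgs1 was higher as well (0.51, SE 0.0526, adjusted p = 1.0e-06), whereas Ptgis, which makes prostacyclin, was lower (-0.61, SE 0.0666, adjusted p = 2.0e-06), within a list of 15 of which 6 were called higher and 4 lower (median 0.02). Ptgs2 thus rose while Il6, Cxcl1 and Nfkbia, which inflammation is known to induce too, fell. Among 20 oxysterol and adipocyte lineage genes, 9 were called lower and 3 higher (median -0.11). Cyp7b1, which breaks down oxysterols, fell by 1.52 (SE 0.150, adjusted p = 6.1e-07) and Cebpd, a transcription factor of early adipogenesis and of the acute phase, by 1.38 (SE 0.0915, adjusted p = 4.5e-09). Ch25h, which makes the oxysterol that Cyp7b1 degrades, fell by 1.84 (SE 0.0944, adjusted p = 3.6e-10), from 2.35 and 2.13 on the NSF arrays to 0.58, 0.34 and 0.28; NSF replicate 2 carried an outlier flag and did not enter the fit for this gene.

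The label of fibroblasts was checked against marker genes. Vim, Col1a1 and Col1a2 were saturated on all 6 arrays and Thy1 was bright, with a median Cy5 intensity of 30500 in TAF-el4 and 35000 in NSF. Other markers of the list were far dimmer: Fap had 91 and 106, Lum 380 and 428 and Cd34 484 and 1030 in TAF-el4 and NSF. Over the 14 fibroblast markers the mean log2 ratio was 0.38 to 0.44 on TAF-el4 arrays and 0.75 to 0.87 on NSF arrays. Of these markers 7 were called lower and 1 higher (S100a4, 0.45). The S100a4 probe was saturated on 3 TAF-el4 arrays and 2 NSF arrays. Saturated probes are counted here and their differences are not reliable. In such bulk RNA, fewer cells of a type and less RNA per cell cannot be told apart. For T cells and lymphoma, to which EL4 belongs, 1 of 17 markers was called (Cd5, 0.15, with a median Cy5 intensity of 727 in TAF-el4 and 718 in NSF), and the mean ratio was -0.38 to -0.36 against -0.44 to -0.43. The defining markers Cd3d, Cd3g and Ptprc had median Cy5 intensities of 108, 136 and 93.7 in TAF-el4 and 121, 147 and 99.1 in NSF, against a median background of 53 to 56. Cd3e, from the same receptor complex as Cd3d and Cd3g, was brighter in both sources, at 2060 and 2210, and was not called (0.04, SE 0.0367, adjusted p = 0.633). Macrophage markers gave 1 higher and 2 lower of 15 (6.67% and 13.3%, against 8.80% and 8.58% of all genes tested). Their mean ratios were -1.05 to -0.95 against -1.06 to -1.0. Endothelial markers gave 3 lower of 14, chiefly the VEGF receptor Flt1 (-1.54, SE 0.0527, adjusted p = 9.5e-13), with mean ratios of 0.10 to 0.11 against 0.24 to 0.26, while Pecam1 and Cdh5 were dim in both sources, at 116 and 127 in TAF-el4 and 125 and 156 in NSF. The part of other cells in the inflammatory and matrix differences was not tested. Of the sex-linked genes, Xist (-0.08), Ddx3y (-0.02), Kdm5d (-0.07) and Uty (-0.13) were not called by limma (adjusted p = 0.855, 0.927, 0.363 and 0.131). For Uty the arrays of the sources did not overlap. Ddx3y and Uty were dim, with median Cy5 intensities of 97.3 and 94.9 in TAF-el4 and 106 and 97.3 in NSF. Their lack of a call therefore says little. Xist was brighter, at 2120 in TAF-el4 and 2480 in NSF.

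Whether these differences were larger in TAF-el4 than in the other tumour-associated sources was tested in the same fit, by TAF-el4 minus the mean of TAF-tib42, TAF-tib48 and TAF-tib6, which equals the difference between their contrasts against NSF. That test called 7151 genes (22.9%), 4201 higher in TAF-el4 (13.5%) and 2950 lower (9.46%), and 2617 with the run of slides as a block. Cell division was higher in TAF-el4 than the mean of these sources too: 28 of 30 mitosis and 23 of 30 replication genes were called higher, with medians of 0.51 and 0.37. Against NSF, the mitosis list had medians of 0.28 in TAF-tib42, 0.31 in TAF-tib48 and -0.08 in TAF-tib6. Those of the replication list were 0.17, 0.13 and -0.01. Cdc20 had mean levels of -0.57, -0.40 and -1.06 in TAF-tib42, TAF-tib48 and TAF-tib6, beside -0.90 in NSF. Rrm2 had mean levels of -1.36, -1.29 and -1.51 in these sources, near its -1.50 in NSF. For Rrm2, TAF-el4 exceeded their mean by 1.35 (SE 0.0868, adjusted p = 1.9e-09). Cck was likewise at 0.22, 0.25 and 0.51 in these sources (1.92, SE 0.0567, adjusted p = 1.0e-13). Egr2 and Ptgs2 exceeded the mean of the other sources by 2.18 and 1.57.

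Cxcl1, Nfkbia and Saa3 were low in TAF-el4 and TAF-tib48 and higher in TAF-tib42 and TAF-tib6. Cxcl1 had means of 1.98, -0.96 and 1.95 in TAF-tib42, TAF-tib48 and TAF-tib6, Nfkbia of 0.28, -1.37 and 0.06, and Saa3 of 2.21, -1.70 and 1.99. Against the mean of the 3 sources TAF-el4 fell by 1.82, 1.18 and 1.51 for these genes (adjusted p = 1.3e-10, 4.6e-10 and 2.3e-05). The label of a source as resistant or sensitive did not order these 3 genes, since TAF-tib42 is labelled resistant. Other inflammatory genes had other orders: Cxcl12 was lowest in TAF-tib42 (-2.03), below TAF-tib48 (-0.90), TAF-el4 (-0.34) and TAF-tib6 (1.63), and Vcam1 was at 1.24, 1.29 and 1.58 in TAF-tib42, TAF-tib48 and TAF-tib6. Dcn and C3 were low in TAF-tib42 and TAF-tib48 as well, at -2.82 and -2.76 and at -1.99 and -2.88, and the calls against the other sources were lost with the run of slides as a block (adjusted p = 0.0892 and 0.384). Cxcl12, Gas6, Nid2, Adamts15, Vegfd, Ch25h, Id4, Cyp7b1 and Pdgfc did not pass the test against that mean. Their differences were 0.09, 0.04, -0.14, 0.04, 0.12, 0.12, -0.05, -0.30 and -0.05. Pdgfc had means of 0.28, -0.17 and -0.76 in TAF-tib42, TAF-tib48 and TAF-tib6, beside -0.27 in TAF-el4. Of 38 interferon genes, 30 were called lower than the mean of these sources, and TAF-tib42 was the highest source for Ifit1, at 2.60 against 0.59 in TAF-tib48 and 0.28 in TAF-tib6. Mela was high in TAF-tib42 and TAF-tib48 (0.65 and 0.90) and low in TAF-tib6 (-4.24), while the proliferin Prl2c5 was high in TAF-tib48 (3.85) and low in TAF-tib42 (-1.39) and TAF-tib6 (1.45).

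**Figure D4:**
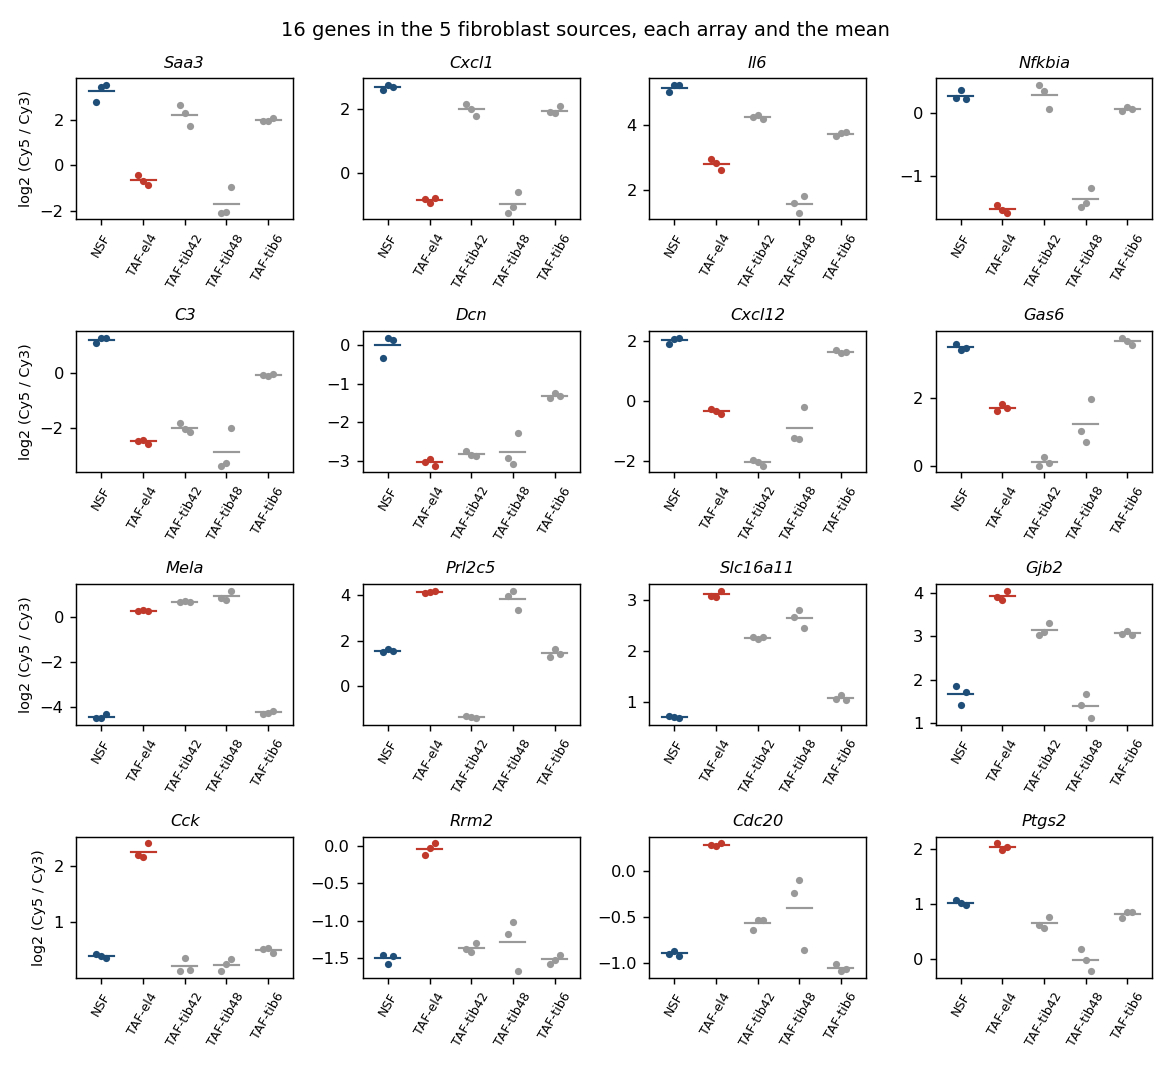
Log2 ratio to the reference (vertical axis, scaled per gene) on each array of the 5 fibroblast sources for 16 genes; points are arrays and bars are source means. Cxcl1 and Nfkbia are low in TAF-el4 and TAF-tib48, while Cck and Rrm2 are high in TAF-el4 alone among the sources plotted.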

How the data were processed

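RNA of 5 mouse fibroblast sources had been hybridised to 15 Agilent 2-colour arrays, with a slide for each array. Per the file headers, the deposited scanner files give unnormalised spot intensities (the mean of the spot and the median of its surroundings, per dye) and, from the scanner software, a log10 ratio of Cy5 to Cy3 already background-subtracted and LOWESS-corrected. The authors' deposited table gives log2 ratios. Set against the scanner ratios of the same arrays its columns had slope 1 and correlation 1, which settles their scale and direction. Column medians ran from 0.0337 to 0.0511, so the columns had not been median-centred after the LOWESS correction. Agilent Feature Extraction 8.5.1.1 is named in the file headers and in the submitters' processing notes, and version 9.5 in a protocol label.

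The intensities were processed in R 4.3.3 using limma 3.58.1, by normexp background correction (offset 50) and loess within arrays. Control spots received weight 0, spots flagged as outliers were dropped, saturated spots stayed in, and repeated spots were averaged by probe. Names came for 22207 of 41174 probes through accessions in RefSeq's table for GRCm38.p6 and for 1537 through descriptions or gene names on the array, and 17430 retained the array's own name. A gene was represented by its brightest probe on average. It entered the test when the scanner marked Cy5 well above background on all 3 arrays of any source. All 15 arrays were fitted together with a mean for each source (lmFit, eBayes, two-sided), Benjamini-Hochberg adjustment ran over 31188 genes, and an adjusted p under 0.05 was a call. Precision is limited by how few arrays there are; a gene's SD among replicate arrays had a median of 0.0631 log2 units.

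The text names the 12 highest and 12 lowest differences among called genes whose sources do not overlap, passing over clone, RIKEN, predicted, pseudogene and accession names, then up to 4 (3 in practice) called members of each described list with the largest differences, and Pdgfa, Pdgfc and Vegfa. Any gene outside that rule, such as a lone exception to a list's direction, a saturated probe or a cell marker, was named after its values were seen. Members and lists were chosen with earlier results of these data known. Promoter sequences came from RefSeq and were found for 55 of the 73 genes reported under the rule; 2 others that it names are not reported here.

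In simulated arrays built from the real genes' means and spreads, for TAF-el4 against NSF over 31188 genes, calls recovered 58% of 50 genes at 1.2-fold, 98% at 1.5-fold and 100% at 2-fold, with 10 false calls. The simulation had far fewer changed genes than were called in the real data, independent noise and no effect of slide run. Its rates may therefore not hold for the real arrays. Alternatives covered the normalisation, background and filter, the scanner's ratios, the authors' table, Cy5 alone, averaging a gene's probes, blocks for replicate number and slide run, and leaving out each of the 15 arrays. Same-numbered arrays of the sources did not deviate together (correlations of 0.00189, 0.0625 and 0.0317), so the numbers were not taken as pairs.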

Additional observations from a re-analysis of the deposited data

Results flagged for a closer look

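Of the 73 genes reported under the rule, 59 differed between TAF-el4 and the mean of the other tumour-associated sources, by limma's test of that difference with Benjamini-Hochberg adjustment. The values in brackets after gene names are TAF-el4 minus that mean on the log2 scale. Each equals the contrast of TAF-el4 against NSF minus the mean contrast of the other sources against NSF. Among the 23 leading genes reported, 22 were of this kind, while 22.9% of all genes tested were. Most of the genes reported were named for a large difference from NSF on the same TAF-el4 arrays. High counts here are thus partly built in.

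TAF-el4 lay beyond each of the other sources' own means, by any margin and in the direction given, for 43 of the 59, 17 lower and 26 higher. For the other 16 it lay between them: Saa3, Saa1, Cxcl1, Cxcl5, Il6, C3, C1ra, Cebpd and Col14a1 were lower than the mean of the 3 but not than every source, and Mela, Glipr1, Brinp3, Prelp, Mgp, Mylk and Ptgs1 were higher than the mean but not than every source. Mela, for example, had a mean of 0.26 in TAF-el4, 0.65 in TAF-tib42, 0.90 in TAF-tib48 and -4.24 in TAF-tib6. Ptgs1 had means of -0.72, -0.42, -0.26 and -2.12 in the same order. Among the 43, some margins were small. Sod2 had a mean of -0.03 in both TAF-el4 and TAF-tib48, with overlapping arrays. Angpt2 had -0.04 against -0.02 in TAF-tib42, and Prl2c5 had 4.17 against 3.85 in TAF-tib48. For Cck the margin was wide, at 2.25 against 0.51 in TAF-tib6, the nearest source.

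Inflammatory and complement genes of this set that were lower in TAF-el4 than that mean were Saa3 (-1.51), Saa1 (-1.25), Cp (-1.01), Cxcl1 (-1.82), Cxcl5 (-1.79), Il6 (-0.37), Nfkbia (-1.18), Sod2 (-0.70), Vcam1 (-0.51), C3 (-0.83), C1s1 (-0.95), C1ra (-0.40), Ifit1 (-1.42), Gbp3 (-1.11), Iigp1 (-0.68) and Cebpd (-0.44). Their whole lists shifted less. Against that mean, 4 of 16 acute phase genes were called lower and 0 higher (median -0.09). Complement had 7 of 20 lower and 3 higher (median -0.08), and chemokines and cytokines 11 of 37 lower and 9 higher (median 0). The NF-kappaB list had 14 of 21 lower and 1 higher (median -0.27). Matrix genes went both ways, with Dcn (-0.74), Ogn (-1.28), Col18a1 (-1.13), Col14a1 (-0.39), Col15a1 (-0.70), Ccn3 (-1.90) and Adamts1 (-0.81) lower and Prelp (0.42) and Mgp (0.31) higher. The remaining genes below it were Selenop (-1.66), Ctla2a (-1.73) and Angpt2 (-1.24).

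The cell division genes of this set were higher than the mean of the other sources, namely Rrm2 (1.35), Cks2 (1.06), Kif20a (0.91), Cdc20 (0.96), Cenpa (0.82), Rrm1 (0.93) and Mcm3 (0.50). Higher than that mean too were the leading genes Mela (1.16), Prl2c5 (2.86), Prl2c3 (2.67), Slc16a11 (1.11), Gjb2 (1.40), Cck (1.92), Glipr1 (0.68), Sgk1 (1.44), Brinp3 (1.02) and Nqo1 (0.95). Contractile and signalling genes above it were Cnn1 (1.30), Mylk (0.48), Tpm2 (0.54), Fst (1.38), Inhba (0.82), Egr2 (2.18), Fosl1 (0.92), Fos (1.23) and Pdgfa (0.32). Also above that mean were Ptgs2 (1.57), Ptgis (1.22), Ptgs1 (0.22), Gja1 (0.86) and Gjb5 (0.68). Mylk, Fst, Fos, Ptgis, Prelp and Mgp thus lay below NSF but above the mean of the other sources.

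TAF-el4 shares a run of slides with NSF for 2 arrays and with TAF-tib42 and TAF-tib48 for 1. With that run as a block, 52 of the 59 kept their call and 7 lost it: C3 (adjusted p = 0.384), Dcn (0.0892), C1ra (0.314), Prelp (0.0775), Col14a1 (0.267), Mgp (0.457) and Pdgfa (0.0657). Sources and runs of slides overlap little in this contrast, and the part of the run in the difference was not tested further. Leaving out 1 array at a time ended the calls of C1ra and Col14a1 whichever of the 3 TAF-el4 arrays was left out and that of Mgp without TAF-el4 replicate 1 or 2, while all 59 kept theirs whichever of the 9 arrays of the other tumour-associated sources was left out.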

How the results depend on the processing

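Of the 71 genes reported under the rule that every alternative tested, 62 kept their direction and their side of the threshold under all 28; Ch25h and Uty did so under the 27 run for them, since the filter on all 6 arrays removed them. Of the 147 genes called at least 2-fold for TAF-el4 against NSF, 33 higher and 114 lower, between 142 and 147 kept their call, and 143 of 143 that passed a filter on all 6 arrays. Ratios scaled between arrays gave 2823 calls against NSF, 1339 higher and 1484 lower, and 4510 against the other sources, 2792 higher and 1718 lower. They also ended the calls of Prelp (adjusted p = 0.591), Cnn1 (0.435), Tpm2 (0.538), Id4 (0.115), Fos (0.0927) and Mcm3 (0.0683); the cause was not tested. Median centring gave 1727 higher against NSF (37% of calls, 50.7% in the main analysis) and 1872 lower against the other sources. The Cy5 channel alone gave 3569 calls, 1658 of them higher, and Kdm5d at 0.05. With the slide run as a block, the contrast against the other sources gave 2617 calls, 1707 higher and 910 lower, and that against NSF 4594. A 2-fold minimum left 108 genes against the other sources, 74 higher and 34 lower. The replicate block gave 5274 calls against NSF (2678 higher, 2596 lower) and 6902 against the other sources; the numbers do not pair the arrays, and 1 of 3 TAF-el4 arrays correlated best with the NSF array of its own number.

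Leaving out 1 of the 15 arrays at a time gave 4491 to 5700 calls against NSF, with 2228 to 2888 higher and 2204 to 2812 lower, and 5511 to 7272 against the other sources, with 3200 to 4268 higher and 2143 to 3004 lower. Leaving out the arrays of the other sources was chosen after seeing the data, as was the analysis within the first run of slides. Uncalled sex-linked genes changed sign in this way: Xist ranged from -0.28 to 0.08 and Ddx3y from -0.10 to 0.04. Saturation on every array of both sources limits Col1a1, Col1a2, Vim, Acta2, Aldoa and Ldha. The lenient background flag means that dim probes, such as the second probes of C3 and Saa1, may carry little signal.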

Other observations

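Counts of called genes follow for lists not described above, to be read against the 17.4% of all genes called in either direction; the genes named here were chosen after their values were seen, and the tests are those of the limma fit. Of 31 Hox genes, which record the position of a cell along the body, 7 were higher and 6 lower (median 0.00). Hoxc9 read 0.92, 0.85 and 0.83 on the TAF-el4 arrays and -0.09, -0.09 and -0.07 on the NSF arrays (0.95, SE 0.0491, adjusted p = 1.6e-10). Hoxa10 was higher by the same 0.95 (SE 0.0507, adjusted p = 2.5e-10). In the other direction Hoxd4 (-0.70) and Hoxb2 (-0.53) were lower. Whether the called Hox genes follow an order along the clusters was not tested.

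Sterol and fatty acid synthesis had 11 of 22 genes lower and 0 higher (median -0.14), among them Idi1 (-0.55), Fdps (-0.51) and Hmgcs1 (-0.44), enzymes of cholesterol synthesis. Antigen presentation by MHC class I had 6 of 13 lower and 0 higher (median -0.16), led by H2-D1, at -1.75, -1.77 and -1.75 against -0.83, -0.82 and -0.79 (-0.95, SE 0.0567, adjusted p = 1.2e-09), and its partner chain B2m (-0.50). In the IGF list 4 of 12 were lower and 0 higher. Igfbp2, a binding protein of insulin-like growth factors, was 4.02-fold lower (-2.01, SE 0.0770, adjusted p = 4.7e-12). Of 25 Wnt genes, 6 were lower, among them the antagonists Dkk3 (-0.72) and Sfrp2 (-0.70), and 1 was higher, the ligand Wnt2 (0.94, SE 0.0640, adjusted p = 6.5e-09).

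Mesenchymal regulators had 11 of 32 lower and 4 higher, with Twist2 at -0.92 and Pitx1, a factor of the hind limb, at 0.68. Hypoxia and glycolysis had 8 of 25 lower and 4 higher (Ndrg1, -1.12), and its probes of Aldoa and Ldha were saturated on every array of both sources. CDK inhibitors and p53 targets had 6 of 23 lower and 8 higher (Cdkn1a, 0.41). Cross-linking enzymes of the matrix had 2 of 13 higher and 1 lower (Loxl3, 1.09, SE 0.0650, adjusted p = 1.2e-09). Markers of pericytes and smooth muscle gave 1 higher and 2 lower of 11, of keratinocytes and epithelium 1 and 2 of 12, of skeletal muscle 1 and 0 of 8, and of nerve and Schwann cells 1 and 0 of 9. The last pair of lists had shares below that of all genes.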
